A study of Rattus norvegicus with 15 samples.

Results

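Rat chondrocytes that received an siRNA against Ddx5 together with mechanical stress were compared with chondrocytes that received a control siRNA and no stress. The comparison takes 6 of the series' 15 libraries, 3 for each group, and covers all 14147 of 33717 genes with enough reads to be tested. The libraries were placed by the treatment in their labels. All 15 come from primary chondrocytes of the temporomandibular joint (TMJ, the jaw joint), from which total RNA was extracted with Trizol and sequenced.

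The Ddx5 siRNA plus stress group carries both agents, the siRNA and the stress. The control siRNA group carries an siRNA (a short duplex RNA that directs cleavage of a matching transcript) labelled as a negative control, and no stress. Both groups therefore carry an siRNA, and knockdown and stress differ together between them, so their effects cannot be told apart in this comparison alone. The other groups of 3 are Ddx5 siRNA without stress, stress with no siRNA named, and a control with no siRNA named. None of the samples used here combines stress with the control siRNA. The labels leave out the siRNA sequences, how and for how long the cells were stressed, and the age and strain of the rats. Whether replicates were grown or isolated separately is also not stated. A p-value here therefore reflects how much these libraries vary, and that variation may be technical.

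DDX5 is a DEAD-box RNA helicase, an enzyme that uses ATP to remodel RNA, and it takes part in transcription, splicing and microRNA processing. In joint cells, inflammatory signals reach the nucleus through NF-kB, a transcription factor that inhibitors such as the product of Nfkbia hold in the cytoplasm until a stimulus removes them. NF-kB drives chemokines, adhesion receptors and matrix metalloproteinases, the secreted enzymes that degrade cartilage. Low oxygen acts through hypoxia-inducible factors, which raise glycolytic enzymes, glucose transporters and angiogenic factors.

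With the Ddx5 siRNA plus stress, 749 genes were higher and 506 lower than with the control siRNA. The 1255 called genes are 8.87% of those tested, 5.29% higher and 3.58% lower (edgeR quasi-likelihood test, Benjamini-Hochberg adjusted p under 0.05 over all tested genes). Among the genes that were higher, 351 rose at least 2-fold and 108 at least 4-fold. Among those that were lower, 40 fell at least 2-fold and 8 at least 4-fold. The groups did not overlap for 737 of the 749 genes called higher and for all 506 called lower. Of all tested genes, 15.7% lay wholly above the control siRNA libraries and 16.1% wholly below, so groups that do not overlap are common here. The median absolute log2 fold change was 0.947 for the genes called higher and 0.489 for those called lower, and the median over all tested genes was 0.015.

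Some of the called genes belong to lists that are described below by role. Lists and members were chosen with earlier results of these data known, so a high count in a list may in part reflect that choice. The counts of every list are to be read beside 5.29% higher and 3.58% lower among all tested genes. Among those called higher were chemokine, cytokine and NF-kB genes, stromelysins, genes of the low-oxygen response and glucose use, and immediate early genes. Among those called lower were genes of aminoacyl-tRNA synthetases, the amino acid response, ribosomal proteins and the respiratory chain. The volcano plot of all tested genes shows the asymmetry in size between the 2 directions.

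**Figure D1:**
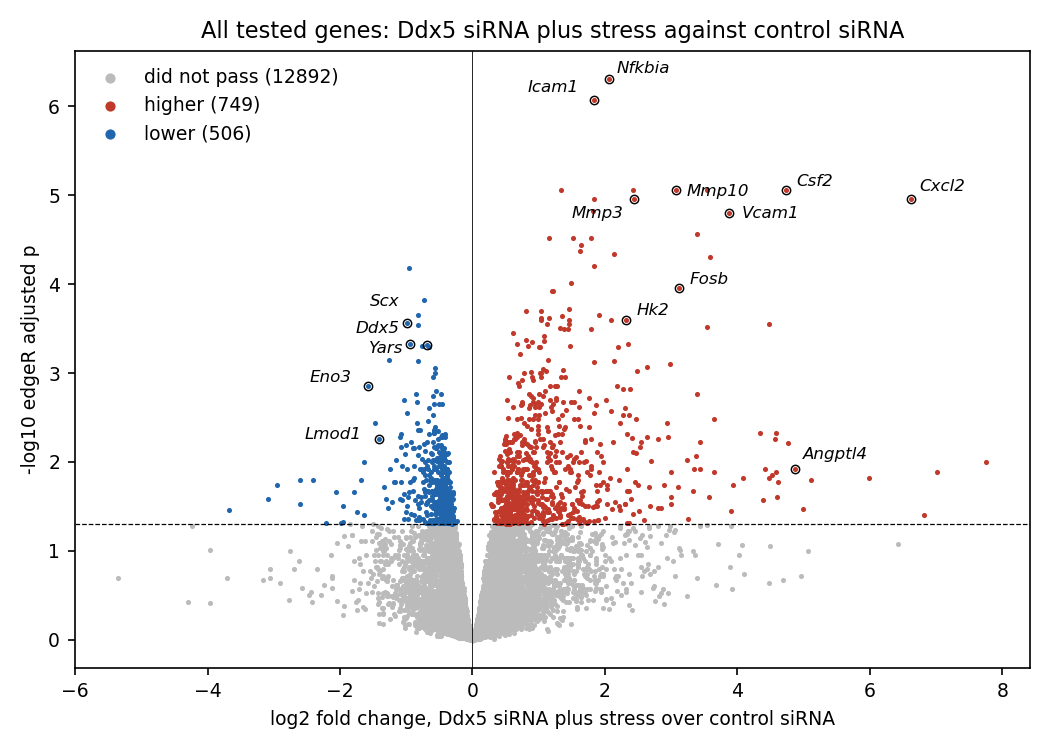
Each point is 1 of 14147 tested genes, with the log2 fold change of Ddx5 siRNA plus stress over control siRNA on the x axis and -log10 of the edgeR adjusted p on the y axis, where the dashed line marks 0.05. The 749 genes called higher reach further from 0 than the 506 called lower, and Nfkbia and Icam1 have the lowest adjusted p.

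The libraries were checked before the results. The 15 libraries held 14309005 to 16219775 counts, and pairs of replicates had Pearson correlations of 0.958 to 0.985 in log2 CPM (CPM, read counts scaled to a common library size after TMM normalisation). Ddx5 siRNA plus stress replicate 1 stood apart. It held 130 genes at least 4-fold above both other libraries of its group, against 19 in each of these, and 13 to 21 in the control siRNA libraries. Without Ddx5 siRNA plus stress replicate 1, 2128 genes were called, 1092 higher and 1036 lower, and without any single one of the other 5 libraries between 418 and 685 were. Ddx5 siRNA replicate 1, which enters only the steps given further on, held 88 such genes. The calls of 239 genes higher and 88 lower held with any of the 6 libraries left out, and genes whose call did not are marked as such below.

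The tissue label was checked against marker genes. The 10 chondrocyte markers, 8 of them tested, summed to 2030 to 2360 CPM with the Ddx5 siRNA plus stress and 2320 to 2740 CPM with the control siRNA. Col11a1 was the most abundant of them. Col9a1 and Matn3 had too few reads to be tested, and Col2a1, the main collagen of hyaline cartilage, stood at 0.391, 3.22 and 2.28 CPM with the Ddx5 siRNA plus stress and 0.327, 0.726 and 1.32 CPM with the control siRNA. Of the markers of other cells, Ptprc and Cd163 of leukocytes and macrophages, Cdh5 of endothelium and Sox10 of Schwann cells were at 0 in all 6 libraries. The 6 markers of Schwann cells and neurons summed to 40.1 to 55.3 CPM with the Ddx5 siRNA plus stress and 56.6 to 70.9 CPM with the control siRNA, with S100b the most abundant. The 6 markers of skeletal muscle summed to 17.2 to 28.8 CPM with the Ddx5 siRNA plus stress and 17.9 to 22.9 CPM with the control siRNA, with Tnnt3 the most abundant. The 7 markers of synovial fibroblasts and tendon summed to 1070 to 1980 CPM with the Ddx5 siRNA plus stress and 2170 to 2270 CPM with the control siRNA. Thy1 was the most abundant of them and did not pass (edgeR adjusted p = 0.14). Csf1r, a macrophage receptor, was low and called higher, at 1.89, 1.58 and 0.695 CPM with the Ddx5 siRNA plus stress and 0.131, 0.581 and 0.132 CPM with the control siRNA (log2 fold change 2.30, SE 0.61, edgeR adjusted p = 0.03). Its call was lost without Ddx5 siRNA plus stress replicate 1 (0.058) or 2 (0.091) or control siRNA replicate 1 (0.13) or 3 (0.12). The 8 leukocyte markers, 3 of them tested, summed to 21.7 to 28.8 CPM with the Ddx5 siRNA plus stress and 19.5 to 21.9 CPM with the control siRNA. The part of these other markers in the results was not tested. In bulk RNA, fewer cells of a type and less RNA per cell cannot be told apart.

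The promoters of 3 genes that the inflammatory results turn on are shown first, because they hold matches to the sequence that NF-kB is known to bind. They are RefSeq sequences of the rat build GRCr8, 250 bases upstream of the gene start, written 5′ to 3′ on the gene's strand. Capitals mark matches to the kB consensus decamer on either strand. The promoters of Icam1, Tnfaip2, Csf2, Ccl7 and Cx3cl1, which were also called higher, held no match in this window and are not shown. Cxcl2 lies at chr14:17467256-17467505 and Cxcl1 at chr14:17479322-17479571, and in both 2 overlapping matches make a run of 11 capitals. Nfkbia lies at chr6:78597073-78597322. All 3 promoters are on the minus strand.
Cxcl2: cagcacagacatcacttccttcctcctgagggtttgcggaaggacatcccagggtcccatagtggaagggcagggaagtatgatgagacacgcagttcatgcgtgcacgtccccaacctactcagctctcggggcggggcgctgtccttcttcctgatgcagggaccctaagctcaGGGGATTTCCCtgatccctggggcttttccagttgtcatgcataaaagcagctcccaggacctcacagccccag
Cxcl1: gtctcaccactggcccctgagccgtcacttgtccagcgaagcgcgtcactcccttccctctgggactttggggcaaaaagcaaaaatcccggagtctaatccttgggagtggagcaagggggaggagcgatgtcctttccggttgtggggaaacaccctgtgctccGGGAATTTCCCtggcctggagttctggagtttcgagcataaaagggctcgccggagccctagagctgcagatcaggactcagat
Nfkbia: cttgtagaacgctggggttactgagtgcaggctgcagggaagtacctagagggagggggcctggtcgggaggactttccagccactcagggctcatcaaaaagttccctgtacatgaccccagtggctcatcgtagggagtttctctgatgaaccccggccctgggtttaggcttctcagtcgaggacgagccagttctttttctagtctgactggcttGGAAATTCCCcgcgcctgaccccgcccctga

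The decamer was counted in every promoter that could be matched by name. It was in 17 of 35 promoters (48.6%) of genes called higher on the inflammation lists. Among all genes called higher the share was 10.2%, among those called lower 2.92%, and among all tested genes 4.33% (405 of 9343). The core of the hypoxia response element, ACGTG or GCGTG on either strand, was in 54.2% of the promoters of genes called higher on the glycolysis and hypoxia lists, and in 56.2% of all tested promoters. These are counts of letters in a 250-base window and show no binding. The inflammation lists hold NF-kB subunits and inhibitors, and no share was counted for their members that were not called. The 48.6% therefore does not set the called members apart from the rest of these lists.

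The targeted gene was examined first among the genes. Ddx5 (chromosome 10, 94980928 to 94988461, minus strand; positions are the deposited ones, of a build that the sources do not name) stood at 164, 240.6 and 193.9 CPM with the Ddx5 siRNA plus stress. The control siRNA libraries held 397.2, 398.3 and 360 CPM. Every Ddx5 siRNA plus stress library was lower than every control siRNA library, as for 16.1% of all tested genes. The Ddx5 mean was 51.8% of the control siRNA mean. The log2 fold change was -0.95 (SE 0.13, edgeR adjusted p = 0.00047, n = 3 per group), and the call held with any of the 6 libraries left out. A two-sided exact permutation test of 3 libraries against 3 gave p = 0.1, the smallest it allows. Under stress with no siRNA named, Ddx5 had a log2 fold change of -0.37 against the control (edgeR adjusted p = 0.18, or 0.01 with replicate number as a block). With the Ddx5 siRNA, stress over no stress gave -0.18 (edgeR adjusted p = 0.68). The part of stress in the fall of Ddx5 was not tested.

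A pair of microRNA loci that lie inside Ddx5 on the same strand fell as well. Mir3064 (chromosome 10, 94982051 to 94982117) stood at 2.22, 1.92 and 1.14 CPM with the Ddx5 siRNA plus stress and 5.36, 3.92 and 5.37 CPM with the control siRNA (log2 fold change -1.47, SE 0.26, edgeR adjusted p = 0.0036). The unnamed microRNA locus AABR07030590.1 (94982505 to 94982605) fell by 1.27 (SE 0.18, edgeR adjusted p = 0.00072). Reads of these loci and reads of the Ddx5 transcript cannot be told apart in the deposited counts. Under stress with no siRNA named, Mir3064 had a log2 fold change of -0.69 and AABR07030590.1 of -0.38. Neither passed there (edgeR adjusted p = 0.2 and 0.31).

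Ddx17 encodes the closest paralog of DDX5. It stood at 143.1, 166.8 and 175.8 CPM with the Ddx5 siRNA plus stress and 102.1, 112.2 and 115 CPM with the control siRNA, a log2 fold change of 0.56 (SE 0.16, edgeR adjusted p = 0.038). The call held only without Ddx5 siRNA plus stress replicate 1, and the adjusted p was 0.089 to 0.14 without any other of the libraries compared. Ddx17 and Ddx41 were the only calls among 48 other tested DEAD-box and DEAH-box helicase genes, whose median log2 fold change was 0.07. Ddx41 rose by 0.61 (SE 0.16, edgeR adjusted p = 0.026), and its call was lost without Ddx5 siRNA plus stress replicate 1 (0.059) or control siRNA replicate 1 (0.12), 2 (0.053) or 3 (0.082).

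Chemokines are the secreted proteins that attract leukocytes. Of 13 tested genes 10 were higher and none lower, beside 5.29% higher and 3.58% lower among all tested genes. This list, like the others, was chosen with earlier results of these data known. The median log2 fold change was 2.95, or 2.20 with Ccl22, which had no count in any control siRNA library, set to a floor of 3 counts per library. With any of the 6 libraries left out, 9 or 10 of the list were called.

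Cxcl2, a neutrophil attractant, stood at 13, 13.9 and 15.4 CPM with the Ddx5 siRNA plus stress and 0, 0.145 and 0.265 CPM with the control siRNA. It had 646 reads over the 3 Ddx5 siRNA plus stress libraries and 6 over the 3 control siRNA libraries, where it was close to absent. The log2 fold change was 6.62 (SE 0.57, edgeR adjusted p = 1.1e-05). Its neighbours on chromosome 14 rose with it. Cxcl3 stood at 316.1, 214.1 and 264.7 CPM with the Ddx5 siRNA plus stress, against 27, 23.8 and 17.4 CPM with the control siRNA (3.54, SE 0.38). Cxcl1 stood at 1220, 1367 and 1567 CPM, against 541, 517 and 425 CPM with the control siRNA (1.49, SE 0.16). Reads shared among these related genes could not be followed in the deposited counts.

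Attractants of monocytes and lymphocytes rose too. Ccl2, the main monocyte attractant, stood at 845, 1272 and 1526 CPM with the Ddx5 siRNA plus stress, against 409, 367 and 280 CPM with the control siRNA, a log2 fold change of 1.79 (SE 0.17, edgeR adjusted p = 3e-05). Ccl7, a close relative, rose by 1.82 (SE 0.17). Ccl20, which attracts cells that carry CCR6, was near 300 CPM with the Ddx5 siRNA plus stress (347.8, 267.4 and 292.7). It was below 43 CPM in each control siRNA library (37.4, 37.5 and 42.8). Ccl5 rose by 3.44 (SE 0.60) and Cx3cl1, a chemokine tethered to the cell surface, by 4.48 (SE 0.54). All of these calls held with any of the 6 libraries left out. Ccl22, a lymphocyte attractant, had 41 reads in all with the Ddx5 siRNA plus stress and none with the control siRNA. It was at least 4.59-fold higher, and its call held only without Ddx5 siRNA plus stress replicate 1 (edgeR adjusted p = 0.098 to 0.12 without any other library). Cxcl6, Cxcl10 and Cxcl12 did not pass.

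Adhesion receptors and the parts of the NF-kB pathway showed the lowest adjusted p-values. Of 19 tested genes 15 were higher, none was lower and all 19 had a positive value, with a median log2 fold change of 1.12. With any library left out, 12 to 15 of the list were called. Nfkbia, the inhibitor that NF-kB itself induces, stood at 216.5, 175.1 and 180 CPM with the Ddx5 siRNA plus stress and 44.9, 48.4 and 44.2 CPM with the control siRNA. It rose by 2.05 (SE 0.12, edgeR adjusted p = 4.9e-07), the lowest adjusted p of all genes. Icam1, a receptor that leukocytes adhere to, stood at 703, 730 and 670 CPM with the Ddx5 siRNA plus stress and 175, 194 and 219 CPM with the control siRNA (1.84, SE 0.12). The spread within each group was small beside these differences.

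Other feedback genes of NF-kB moved with Nfkbia. Birc3, an inhibitor of apoptosis, stood at 41.8, 29.8 and 26.5 CPM with the Ddx5 siRNA plus stress and 6.34, 6.53 and 5.43 CPM with the control siRNA (log2 fold change 2.42, SE 0.20). Tnfaip3, a deubiquitinase that dampens the pathway, rose by 1.48 (SE 0.20), Tnfaip2 by 1.83 (SE 0.16) and the inhibitor gene Nfkbie by 1.21 (SE 0.14). The NF-kB subunit genes Nfkb2 and Nfkb1 rose by 1.12 (SE 0.14) and 0.51 (SE 0.08). Vcam1, an adhesion receptor, stood at 9.12, 11.4 and 11.7 CPM with the Ddx5 siRNA plus stress and was scarce with the control siRNA, at 0.98, 0.653 and 0.53 CPM (3.88, SE 0.35). All of these passed with any of the 6 libraries left out.

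Fewer cytokine genes were called. Of 15 tested cytokines and colony-stimulating factors 4 were higher and none lower (median log2 fold change 1.49), and 3 to 5 were called with 1 library left out. Csf2, which encodes the granulocyte-macrophage factor GM-CSF, stood at 22.1, 11.9 and 13.7 CPM with the Ddx5 siRNA plus stress and 0.784, 0.581 and 0.397 CPM with the control siRNA, a log2 fold change of 4.74 (SE 0.40, edgeR adjusted p = 8.7e-06). Csf1, which encodes the macrophage factor, rose by 1.44 (SE 0.18) and Lif, a cytokine of the interleukin 6 family, by 2.01 (SE 0.30). Il6 did not pass. It stood at 28.8, 8.78 and 8.54 CPM with the Ddx5 siRNA plus stress and 3.92, 3.41 and 3.05 CPM with the control siRNA (2.15, SE 0.71, edgeR adjusted p = 0.079), and replicate 1 was the highest library.

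Among 23 tested cytokine receptors and adaptors 6 were higher and 1 lower. With 1 library left out 2 to 6 were higher, the fewest without control siRNA replicate 3, and 0 were lower. Il1r1, the signalling receptor of interleukin 1 (chromosome 9, 46962288 to 47036670, plus strand), stood at 62.3, 73.8 and 83.1 CPM with the Ddx5 siRNA plus stress, against 24.8, 27.4 and 24.4 CPM with the control siRNA. The groups were far apart (log2 fold change 1.52, SE 0.15, edgeR adjusted p = 3e-05), and the call held with any library left out.

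Of 12 tested genes of prostaglandin and nitric oxide synthesis 4 were higher and none lower. Among all tested genes 5.29% were higher and 3.58% lower. In this list 1 was called higher without control siRNA replicate 1 or 2, and 2 were without replicate 3 of either group. Ass1, which makes the precursor of arginine, stood at 14.7, 15.4 and 13.3 CPM with the Ddx5 siRNA plus stress and 3.4, 2.9 and 3.25 CPM with the control siRNA (log2 fold change 2.18, SE 0.33, edgeR adjusted p = 0.0014). Ptgs2, the inducible cyclooxygenase, stood at 365, 378 and 455 CPM with the Ddx5 siRNA plus stress, against 145, 145 and 99.2 CPM with the control siRNA (1.62, SE 0.39, edgeR adjusted p = 0.027). Its call held only without Ddx5 siRNA plus stress replicate 1, with adjusted p of 0.065 to 0.10 without any other library. Under stress with no siRNA named, Ptgs2 had a log2 fold change of -0.25 against the control (edgeR adjusted p = 0.82). Of 23 interferon response and antigen presentation genes 4 were higher, or 1 without Ddx5 siRNA plus stress replicate 2 or 3 or control siRNA replicate 1. Among them was Irf1, an interferon-regulated transcription factor, which rose by 0.94 (SE 0.16).

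Matrix metalloproteinases gave calls in both directions. Of 12 tested genes 4 were higher and 1 lower, beside 5.29% higher and 3.58% lower among all tested genes. The median log2 fold change of the list was -0.15. The count of lower genes was 4 without Ddx5 siRNA plus stress replicate 1 and 0 without any other library. The stromelysin genes lie close together on chromosome 8. They were higher in every Ddx5 siRNA plus stress library than in any control siRNA library, as were 15.7% of all tested genes. Mmp3 (5676665 to 5698579), stromelysin 1, stood at 142, 86.5 and 79.5 CPM with the Ddx5 siRNA plus stress and 19.5, 17.5 and 19.7 CPM with the control siRNA (log2 fold change 2.44, SE 0.20, edgeR adjusted p = 1.1e-05). Mmp10 (5734348 to 5742243), stromelysin 2, stood at 10.5, 9.67 and 10.8 CPM with the Ddx5 siRNA plus stress and 1.44, 1.31 and 0.927 CPM with the control siRNA (3.07, SE 0.25). Both calls held with any library left out.

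The gelatinase gene Mmp9 stood at 128, 59.6 and 57.2 CPM with the Ddx5 siRNA plus stress and 13.8, 16.9 and 16.1 CPM with the control siRNA (log2 fold change 2.38, SE 0.33). The collagenase gene Mmp13 was low. It stood at 8.15, 1.78 and 2.02 CPM with the Ddx5 siRNA plus stress and 0.849, 0.581 and 0.662 CPM with the control siRNA (2.50, SE 0.59, edgeR adjusted p = 0.018). The Mmp13 call was lost without Ddx5 siRNA plus stress replicate 1 (edgeR adjusted p = 0.058) or control siRNA replicate 1 (0.064), 2 (0.074) or 3 (0.072). Mmp19 fell by 0.61 (SE 0.16), a call that held only without Ddx5 siRNA plus stress replicate 1 (edgeR adjusted p = 0.074 to 0.10 without any other library).

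Of 15 tested ADAMTS proteases, the family that includes the aggrecanases, 4 were higher, 7 without Ddx5 siRNA plus stress replicate 1 and 2 or 3 without any other library. Among all tested genes 5.29% were higher and 3.58% lower. Adamts15 stood at 4.24, 7.41 and 7.14 CPM with the Ddx5 siRNA plus stress and 1.31, 1.38 and 0.994 CPM with the control siRNA (log2 fold change 2.35, SE 0.31, edgeR adjusted p = 0.00047). Of 14 genes on the protease inhibitor list 5 were higher and 1 lower, and 2 were higher without any library other than Ddx5 siRNA plus stress replicate 1. They include Plat, the tissue plasminogen activator, which is a protease and rose by 1.01 (SE 0.14), and Tfpi2, an inhibitor of serine proteases, which rose by 2.30 (SE 0.39).

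Cartilage matrix and identity genes gave 1 call among 18 tested, and it was downward, beside 3.58% lower among all tested genes. Runx2, which drives chondrocytes toward hypertrophy, stood at 24.9, 24.8 and 21.6 CPM with the Ddx5 siRNA plus stress and 33.3, 35.5 and 36.6 CPM with the control siRNA (log2 fold change -0.56, SE 0.13, edgeR adjusted p = 0.017). The Runx2 call was lost without Ddx5 siRNA plus stress replicate 3 (edgeR adjusted p = 0.071) or control siRNA replicate 2 (0.058) or 3 (0.063). Acan, the core protein of the main cartilage proteoglycan, overlapped between groups, at 142.5, 248.2 and 279.3 CPM with the Ddx5 siRNA plus stress and 287.4, 306.6 and 272.6 CPM with the control siRNA (edgeR adjusted p = 0.57). Sox9, the factor that sets chondrocyte identity, had a log2 fold change of -0.55 (SE 0.21) and did not pass (edgeR adjusted p = 0.12). It was called lower in both comparisons of stress with no stress. With the Ddx5 siRNA the log2 fold change was -0.944 (edgeR adjusted p = 0.045, or 0.0006 with replicate number as a block). With no siRNA named it was -0.915 (edgeR adjusted p = 0.049, or 0.00041 with the block).

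Of 7 markers of synovial fibroblasts and tendon 1 was higher and 1 lower. Of 19 matricellular genes and YAP targets 2 were higher and 1 lower, beside 5.29% higher and 3.58% lower among all tested genes. Scx, a transcription factor of tendon and its attachment to cartilage, stood at 99.5, 110 and 111 CPM with the Ddx5 siRNA plus stress and 216, 205 and 213 CPM with the control siRNA (log2 fold change -0.99, SE 0.12, edgeR adjusted p = 0.00027). Cd55, a surface inhibitor of complement, stood at 75.1, 73 and 70 CPM with the Ddx5 siRNA plus stress and 16.5, 19.9 and 19.1 CPM with the control siRNA (1.97, SE 0.43, edgeR adjusted p = 0.017), and its call was lost without control siRNA replicate 1 (0.078), 2 (0.059) or 3 (0.062). Spp1, which encodes osteopontin, fell to 1116, 946 and 929 CPM, against 2063, 1945 and 1594 CPM with the control siRNA (-0.91, SE 0.18). Nov, another matricellular gene, rose by 1.37 (SE 0.22), Sdc4, a cell surface proteoglycan, by 1.10 (SE 0.16), and Emilin1, of elastic fibres, by 0.67 (SE 0.12). The calls of Scx, Spp1, Nov, Sdc4 and Emilin1 held with any library left out. Of 24 contractile and adhesion genes 2 fell, beside the same 3.58%: Lmod1, an actin filament nucleator of muscle, by 1.41 (SE 0.25) and Vcl, which encodes vinculin, by 0.45 (SE 0.10). The Vcl call was lost without control siRNA replicate 1 (edgeR adjusted p = 0.066).

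**Figure D2:**
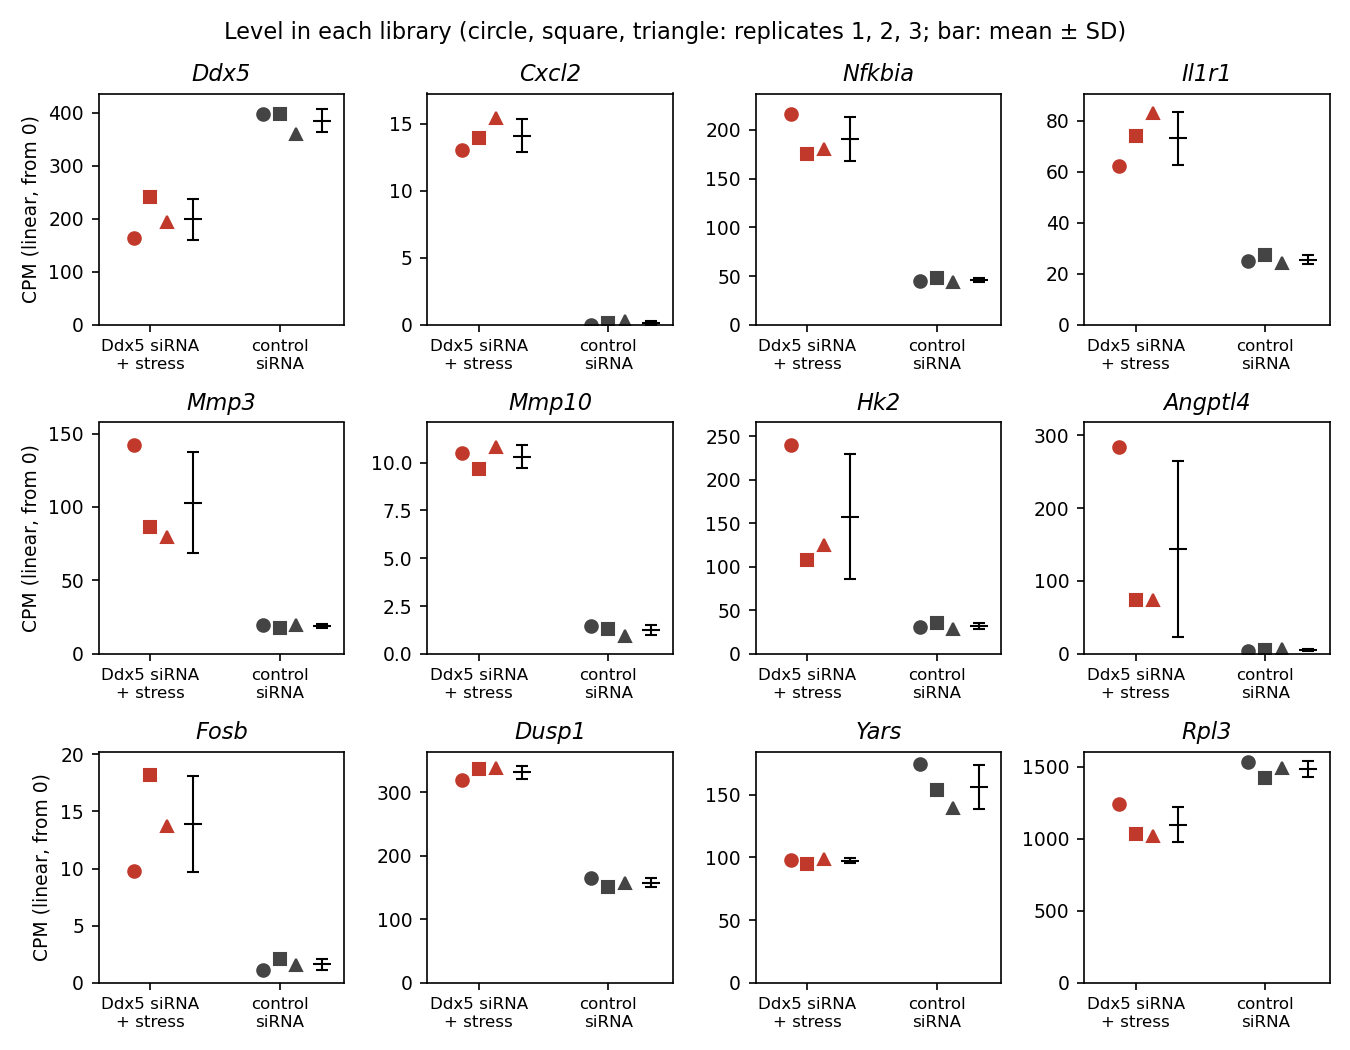
CPM in each library for 12 genes, with Ddx5 siRNA plus stress in red and control siRNA in grey, replicates 1, 2 and 3 as circle, square and triangle, and the mean ± SD (n = 3) at the right of each group. Cxcl2, Nfkbia, Il1r1 and Mmp10 are tight within both groups, while Hk2 and Angptl4 are highest in replicate 1 of the Ddx5 siRNA plus stress group.

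Hypoxia-inducible genes gave the most calls of the metabolic lists. Of 27 tested hypoxia-inducible genes outside glycolysis 17 were higher, none was lower and all 27 had a positive value, with a median log2 fold change of 1.36. The summed level of the list was 5912, 3073 and 3365 CPM with the Ddx5 siRNA plus stress and 2195, 2304 and 2210 CPM with the control siRNA, so replicate 1 held the highest level. Without that library 13 were called, and without the control siRNA replicates 1, 2 and 3 the count was 8, 9 and 8.

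Kdm3a, a histone demethylase that hypoxia-inducible factors raise, stood at 80.7, 50.9 and 52.5 CPM with the Ddx5 siRNA plus stress and 18.9, 19.5 and 21.2 CPM with the control siRNA (log2 fold change 1.63, SE 0.16, edgeR adjusted p = 4.2e-05). Higd1a, a mitochondrial protein gene, stood at 150, 73.8 and 95 CPM with the Ddx5 siRNA plus stress and 31.9, 31.8 and 28.9 CPM with the control siRNA (1.79, SE 0.22). For both genes the lowest Ddx5 siRNA plus stress library was well above the highest control siRNA library. Bhlhe40, a transcriptional repressor, rose by 1.45 (SE 0.17), Stc2, a secreted glycoprotein gene, by 1.30 (SE 0.23), the demethylase gene Kdm4b by 1.26 (SE 0.20) and Vegfa, the angiogenic factor, by 1.12 (SE 0.20), and these calls held with any library left out. Bnip3, a mitophagy receptor, rose by 2.04 (SE 0.45), with a call lost without control siRNA replicate 1 (edgeR adjusted p = 0.082), 2 (0.06) or 3 (0.065).

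Glucose uptake and glycolysis showed 10 genes higher and 1 lower of 25 tested (median log2 fold change 0.42, or 0.06 without Ddx5 siRNA plus stress replicate 1), with 6 higher without control siRNA replicate 3 and 7 to 10 without any other library. The summed level overlapped between groups, at 14520, 8573 and 9733 CPM with the Ddx5 siRNA plus stress and 10090, 9237 and 9074 CPM with the control siRNA. Slc2a1, the glucose transporter GLUT1, stood at 610.7, 158.8 and 223.9 CPM with the Ddx5 siRNA plus stress and 65.6, 64.6 and 57.5 CPM with the control siRNA (2.40, SE 0.40, edgeR adjusted p = 0.0054). Hk2, the hexokinase that traps glucose in the cell, stood at 240, 108 and 125 CPM with the Ddx5 siRNA plus stress and 31, 35.4 and 28.5 CPM with the control siRNA (2.32, SE 0.26, edgeR adjusted p = 0.00025). Replicate 1 was the highest library for both, and the other 2 Ddx5 siRNA plus stress libraries were also above every control siRNA library.

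Enzymes that set the fate of glucose carbon moved the same way. Pfkfb3, which makes the activator of phosphofructokinase, rose by 2.27 (SE 0.32), Pdk1, the kinase that closes the entry of pyruvate into the mitochondrion, by 1.40 (SE 0.21), and Ldha, of lactate dehydrogenase, by 0.47 (SE 0.09). The lactate transporter gene Slc16a1 rose by 0.62 (SE 0.13). All 4 held with any library left out. Eno3, the muscle form of enolase, was the exception. It stood at 38.6, 36 and 33.6 CPM with the Ddx5 siRNA plus stress and 113, 101 and 111 CPM with the control siRNA (-1.58, SE 0.23, edgeR adjusted p = 0.0014).

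Of 20 tested genes of lipid storage and handling 3 were higher and none lower, or 1 higher when any single control siRNA library was left out. Angptl4, an inhibitor of lipoprotein lipase, stood at 284, 74 and 73.9 CPM with the Ddx5 siRNA plus stress and 3.98, 4.86 and 5.96 CPM with the control siRNA (log2 fold change 4.86, SE 0.96, edgeR adjusted p = 0.012). G0s2, an inhibitor of triglyceride breakdown, stood at 114, 20.3 and 24.3 CPM, against 2.16, 1.67 and 3.05 CPM with the control siRNA (4.52, SE 0.92). The groups are far apart for both genes, and both calls were lost when any single control siRNA library was left out (edgeR adjusted p = 0.05 to 0.068 for Angptl4 and 0.051 to 0.069 for G0s2). Cpt1a, the entry step of fatty acid oxidation, rose by 1.37 (SE 0.20) and held with any library left out.

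Immediate early genes, which cells transcribe within minutes of a stimulus, were higher in 12 of 27 and lower in 1 (median log2 fold change 1.07). With 1 library left out 7 to 13 were higher, the fewest without control siRNA replicate 1. Fosb, an AP-1 subunit, stood at 9.78, 18.2 and 13.7 CPM with the Ddx5 siRNA plus stress and 1.11, 2.11 and 1.59 CPM with the control siRNA (3.12, SE 0.35, edgeR adjusted p = 0.00011). Dusp1, a phosphatase that turns MAP kinases off, stood at 320, 336 and 338 CPM with the Ddx5 siRNA plus stress and 165, 151 and 157 CPM with the control siRNA (1.07, SE 0.15). The Dusp1 values hardly varied within a group.

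Btg2, an antiproliferative gene, rose by 1.60 (SE 0.24), Junb, another AP-1 subunit, by 1.39 (SE 0.24), Ier3 by 1.15 (SE 0.16) and the nuclear receptor gene Nr4a3 by 2.47 (SE 0.43). Fos rose by 2.69 (SE 0.52), a call lost without control siRNA replicate 1 (edgeR adjusted p = 0.053). Klf2, a transcription factor that responds to flow in endothelium, was the 1 lower, by 0.82 (SE 0.21), and was lost without control siRNA replicate 1 (edgeR adjusted p = 0.082), 2 (0.055) or 3 (0.081).

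Growth regulators gave scattered calls, to be read beside 5.29% higher and 3.58% lower among all tested genes. Of 22 genes of the IGF and FGF axis 5 were higher and 1 lower, with 8 higher without Ddx5 siRNA plus stress replicate 1 and 1 or 2 without any other library. Spry1, a feedback inhibitor of FGF signalling, fell by 0.68 (SE 0.14) and Fgf1 rose by 1.17 (SE 0.24), the Fgf1 call being lost without control siRNA replicate 1 (edgeR adjusted p = 0.051). Tgfbr3, a co-receptor of TGF-beta, rose by 1.08 (SE 0.14), 1 of 3 calls among 31 genes of the TGF-beta and BMP pathways (8 higher without Ddx5 siRNA plus stress replicate 1, 1 without any other library). Of 22 p53 targets and cyclin-dependent kinase inhibitors 2 were higher and 3 lower. In that list 12 had a positive value, and the median log2 fold change was 0.14. The inhibitor genes Cdkn1a and Cdkn2b were among the lower, by 0.57 (SE 0.10) and 0.60 (SE 0.10). Of 31 proliferation genes 30 had a positive value, with 1 called (median log2 fold change 0.53). Without Ddx5 siRNA plus stress replicate 1, 6 proliferation genes were called.

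Lists of the stress responses and of cell structure gave few calls each in number, to be read beside 5.29% higher and 3.58% lower among all tested genes. Gclc, the rate-limiting enzyme of glutathione synthesis, stood at 190.2, 157 and 190 CPM with the Ddx5 siRNA plus stress and 75.2, 80.7 and 66.9 CPM with the control siRNA (log2 fold change 1.27, SE 0.19, edgeR adjusted p = 0.0014), among 25 antioxidant genes with 1 higher and 3 lower. Ern1, a sensor of unfolded proteins in the endoplasmic reticulum, stood at 51, 63.4 and 55.3 CPM with the Ddx5 siRNA plus stress and 25.5, 25.3 and 28.7 CPM with the control siRNA (1.09, SE 0.17), 1 of 2 higher among 23 genes of that list. Ehd2, which stabilises caveolae, fell by 0.44 (SE 0.09), 1 of 2 lower among 16 genes of stretch sensing and caveolae. These 3 calls held with any library left out. Of 21 heat shock protein genes 2 were higher and 1 lower, and of 30 SR protein and hnRNP genes 2 were lower. Of 19 collagens 1 was lower, and of 15 Wnt ligands and antagonists 1 was higher. Without Ddx5 siRNA plus stress replicate 1, 5 collagens were lower and 2 Wnt genes higher, and without any other library 0 were. Without any library but that replicate, the antioxidant list had 0 or 1 lower, and the heat shock list 0 or 1 higher and 0 lower.

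The genes with the largest fold changes were mostly low in 1 group. Car12, a carbonic anhydrase, stood at 16.2, 0.549 and 1.9 CPM with the Ddx5 siRNA plus stress and 0.131, 0.145 and 0 CPM with the control siRNA (log2 fold change 5.98, SE 1.30, edgeR adjusted p = 0.015). Enpp2, which encodes autotaxin, stood at 5.21, 1.37 and 1.45 CPM with the Ddx5 siRNA plus stress and 0, 0.0726 and 0.199 CPM with the control siRNA (4.77, SE 0.92, edgeR adjusted p = 0.0061). Replicate 1 was the highest library for both. The Car12 call was lost without control siRNA replicate 1 (edgeR adjusted p = 0.069), 2 (0.058) or 3 (0.065), while that of Enpp2 held with any library left out. Among the lower genes, Abcd2, a peroxisomal fatty acid transporter, stood at 1.04, 0.892 and 0.822 CPM with the Ddx5 siRNA plus stress and 3.59, 2.69 and 2.38 CPM with the control siRNA (-1.64, SE 0.35, edgeR adjusted p = 0.01), and did not pass without control siRNA replicate 1 (0.059).

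Genes that charge tRNAs with amino acids fell together. Of 20 tested aminoacyl-tRNA synthetase genes 12 were lower and none higher, with a median log2 fold change of -0.36. Their summed level was 3542, 3431 and 3379 CPM with the Ddx5 siRNA plus stress and 4527, 4499 and 4338 CPM with the control siRNA. Yars, for tyrosine, stood at 97.5, 94.9 and 98.8 CPM with the Ddx5 siRNA plus stress and 175, 153 and 140 CPM with the control siRNA (-0.68, SE 0.09, edgeR adjusted p = 0.00048). Gars, for glycine, fell by 0.56 (SE 0.08), Sars, for serine, by 0.58 (SE 0.11), and Lars, for leucine, by 0.47 (SE 0.09). These falls were small in size and clear of the spread, and 8 to 13 of the list were called with any library left out.

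The amino acid response controlled by the transcription factor ATF4 gave 6 genes lower and 1 higher of 26 (median log2 fold change -0.46). Atf5, another factor of this response, stood at 306, 198 and 194 CPM with the Ddx5 siRNA plus stress and 464, 466 and 533 CPM with the control siRNA (-1.07, SE 0.22, edgeR adjusted p = 0.011), and did not pass without Ddx5 siRNA plus stress replicate 2 (0.052). Asns, asparagine synthetase, fell by 0.71 (SE 0.18), which held only without Ddx5 siRNA plus stress replicate 1 (edgeR adjusted p = 0.058 to 0.09 without any other library). Slc7a11, the cystine transporter, fell by 1.28 (SE 0.35), and did not pass once any single library was removed (edgeR adjusted p = 0.055 to 0.12). Ppp1r15a, the phosphatase subunit that ends the response, rose by 1.16 (SE 0.23) and was lost without control siRNA replicate 1 (edgeR adjusted p = 0.051). The list gave 10 lower calls without Ddx5 siRNA plus stress replicate 1 and 0 to 2 without any other library.

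Ribosomal protein genes were lower by small amounts. Of 46 tested genes 10 were lower and none higher, beside 3.58% lower and 5.29% higher among all tested genes. None of the 46 had a positive value, and their median log2 fold change was -0.45. Their summed level was 29990, 21110 and 21700 CPM with the Ddx5 siRNA plus stress, and 32890, 31490 and 34220 CPM with the control siRNA. Replicate 1 of the Ddx5 siRNA plus stress group lay nearer to the control siRNA libraries than the other 2 did. Without it 41 were called lower, and without any other single library 0 or 1. Rpl3 stood at 1243, 1035 and 1022 CPM with the Ddx5 siRNA plus stress and 1533, 1422 and 1495 CPM with the control siRNA (-0.43, SE 0.11, edgeR adjusted p = 0.025). Its edgeR adjusted p was 0.058 to 0.10 without any library but Ddx5 siRNA plus stress replicate 1. Respiratory chain subunits were alike, with 5 of 34 lower and none higher (median -0.25), 12 of them without that replicate and 0 or 1 without any other.

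**Figure D3:**
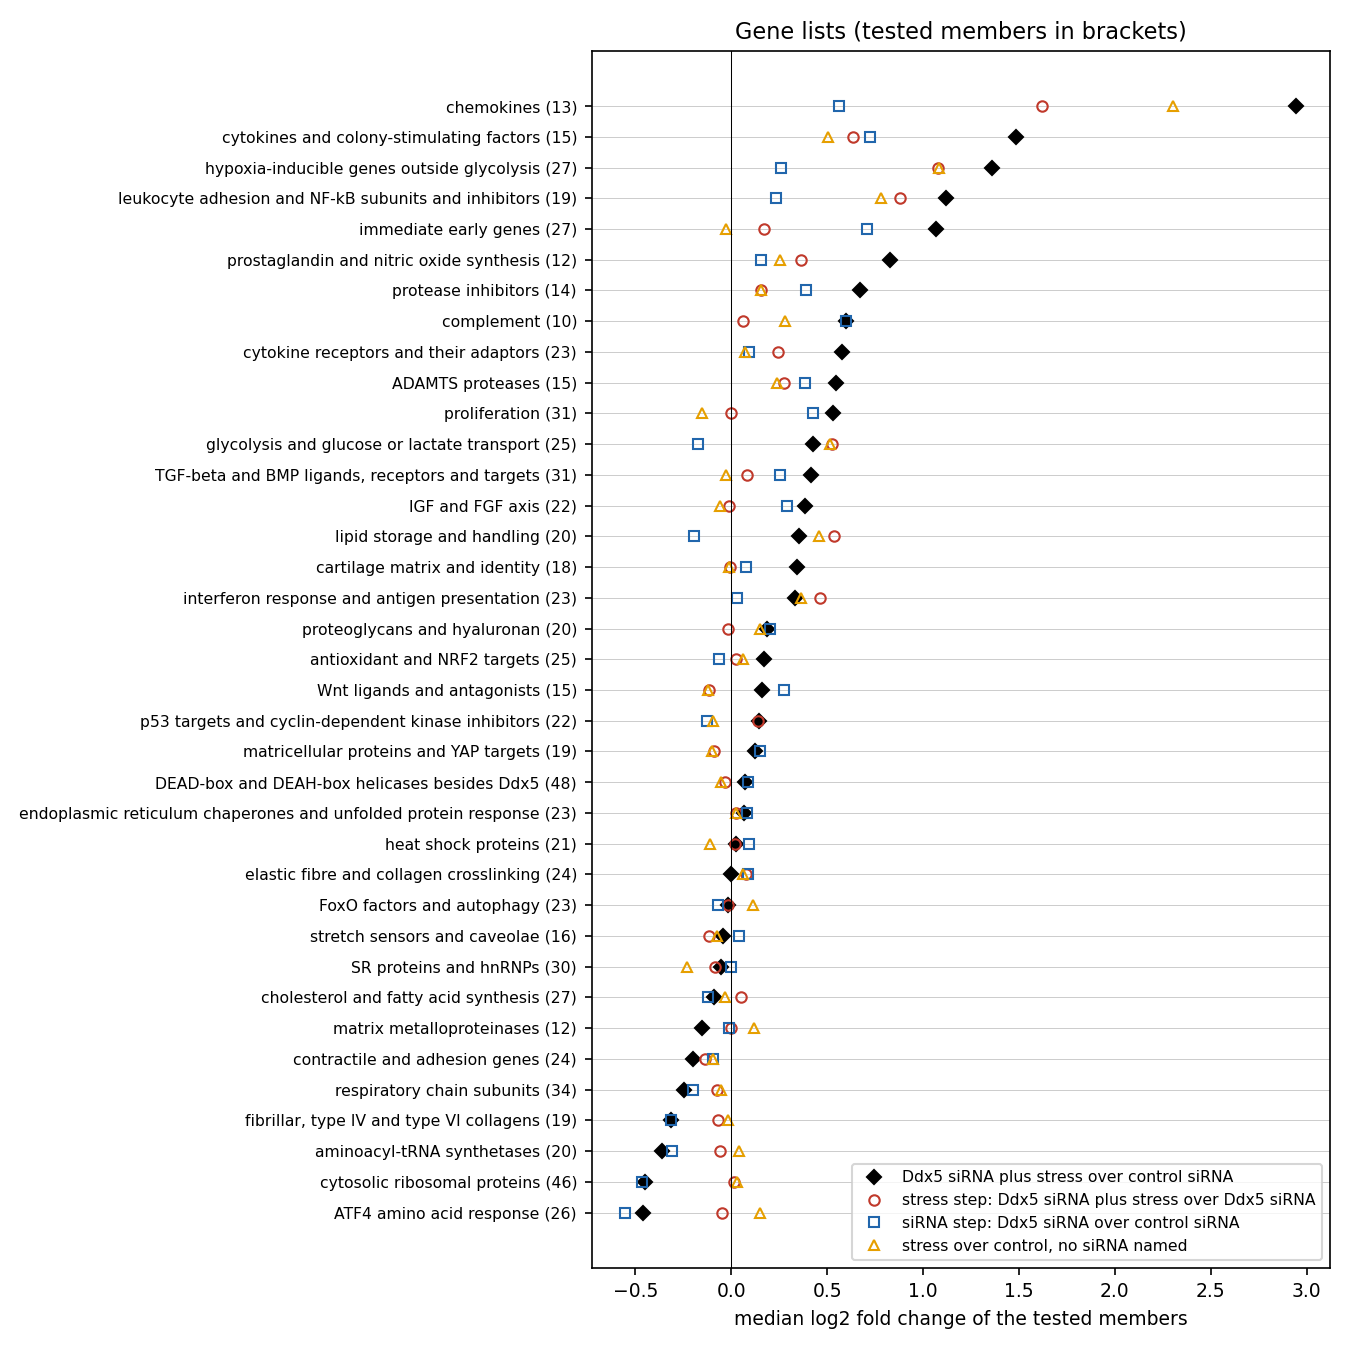
Median log2 fold change of the tested members of each gene list in Ddx5 siRNA plus stress over control siRNA (diamonds), its steps through the Ddx5 siRNA group (circles, stress step; squares, siRNA step), and stress over control without a named siRNA (triangles). Chemokines have a median of 2.95 (diamond), and ribosomal proteins at -0.45 have a stress step of 0.02 and an siRNA step of -0.46.

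The comparison can be laid out through the Ddx5 siRNA group without stress, whose libraries separate a stress step (Ddx5 siRNA plus stress over Ddx5 siRNA) from an siRNA step (Ddx5 siRNA over control siRNA). The steps share the Ddx5 siRNA libraries and each shares libraries with the whole comparison, so their values are given side by side only. The stress step called 149 genes higher (1.05%) and 20 lower (0.141%), and the siRNA step 33 higher (0.233%) and 23 lower (0.163%). Same-numbered libraries of the Ddx5 siRNA plus stress and Ddx5 siRNA groups deviated together, and with replicate number as a block the stress step called 657 higher (4.64%) and 350 lower (2.47%). For the 749 genes called higher in the whole comparison the median was 0.486 in the stress step and 0.389 in the siRNA step. For the 506 called lower it was -0.184 in the stress step and -0.317 in the siRNA step.

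The medians of the lists are given for both steps. Hypoxia genes had a median of 1.08 in the stress step and 0.26 in the siRNA step, and the adhesion and NF-kB list 0.88 in the stress step and 0.23 in the siRNA step. Immediate early genes had 0.17 in the stress step and 0.71 in the siRNA step. Their summed level in the Ddx5 siRNA libraries was 1598, 3079 and 2909 CPM, so replicate 1 there lay with the control siRNA libraries, at 1608, 1580 and 1546 CPM. Ribosomal proteins had 0.02 in the stress step and -0.46 in the siRNA step, and aminoacyl-tRNA synthetases -0.06 in the stress step and -0.31 in the siRNA step. These differences between steps were not tested.

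Single genes are set out the same way. Hk2 had log2 fold changes of 1.92 in the stress step and 0.39 in the siRNA step, Nfkbia 1.75 and 0.30 in that order, and Cpt1a 1.75 and -0.38. Dusp1 had 0.05 in the stress step and 1.02 in the siRNA step, and Yars -0.17 in the stress step and -0.51 in the siRNA step. Mmp3 passed in both, with log2 fold changes of 1.38 in the stress step and 1.06 in the siRNA step (edgeR adjusted p = 0.0025 and 0.043), and its stress step did not pass with the replicate block (adjusted p = 0.10).

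Cxcr4, a chemokine receptor, had a log2 fold change of 0.00 in the stress step and 4.58 in the siRNA step. Its counts were low, with 108 reads over the 3 Ddx5 siRNA plus stress libraries and 4 over the 3 control siRNA libraries. In the whole comparison it rose by 4.58 (SE 0.84, edgeR adjusted p = 0.0047). Cxcr4 stood at 1.24, 2.26 and 3.54 CPM with the Ddx5 siRNA plus stress, against 0.131, 0.0726 and 0.0662 CPM with the control siRNA.

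The siRNA step depends on the control siRNA group, which itself differed from the control with no siRNA named. Between these, 547 genes were called, 297 higher and 250 lower with the control siRNA. Median log2 fold changes there were 1.34 for the ATF4 list, 0.62 for aminoacyl-tRNA synthetases, 0.36 for ribosomal proteins, -0.73 for immediate early genes and -0.72 for chemokines. Dusp1 stood at 227.4, 376.8 and 353.6 CPM with the Ddx5 siRNA alone, 318.1, 290.5 and 369.7 CPM under stress and 322.1, 338.6 and 401.1 CPM in the control, so the control siRNA libraries, at 165, 151 and 157 CPM, were the ones apart. Yars likewise stood at 78, 81.7 and 69.8 CPM in the control, and Eno3 at 54.1, 45.8 and 30.1 CPM, both below the control siRNA libraries. When the Ddx5 siRNA plus stress libraries were set against stress with no siRNA named, 4 genes were called, and the list medians were 0.61 for the ATF4 list, 0.53 for hypoxia genes, 0.20 for immediate early genes, 0.18 for aminoacyl-tRNA synthetases and -0.12 for ribosomal proteins. What the control siRNA libraries share beside the siRNA was not tested.

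**Figure D4:**
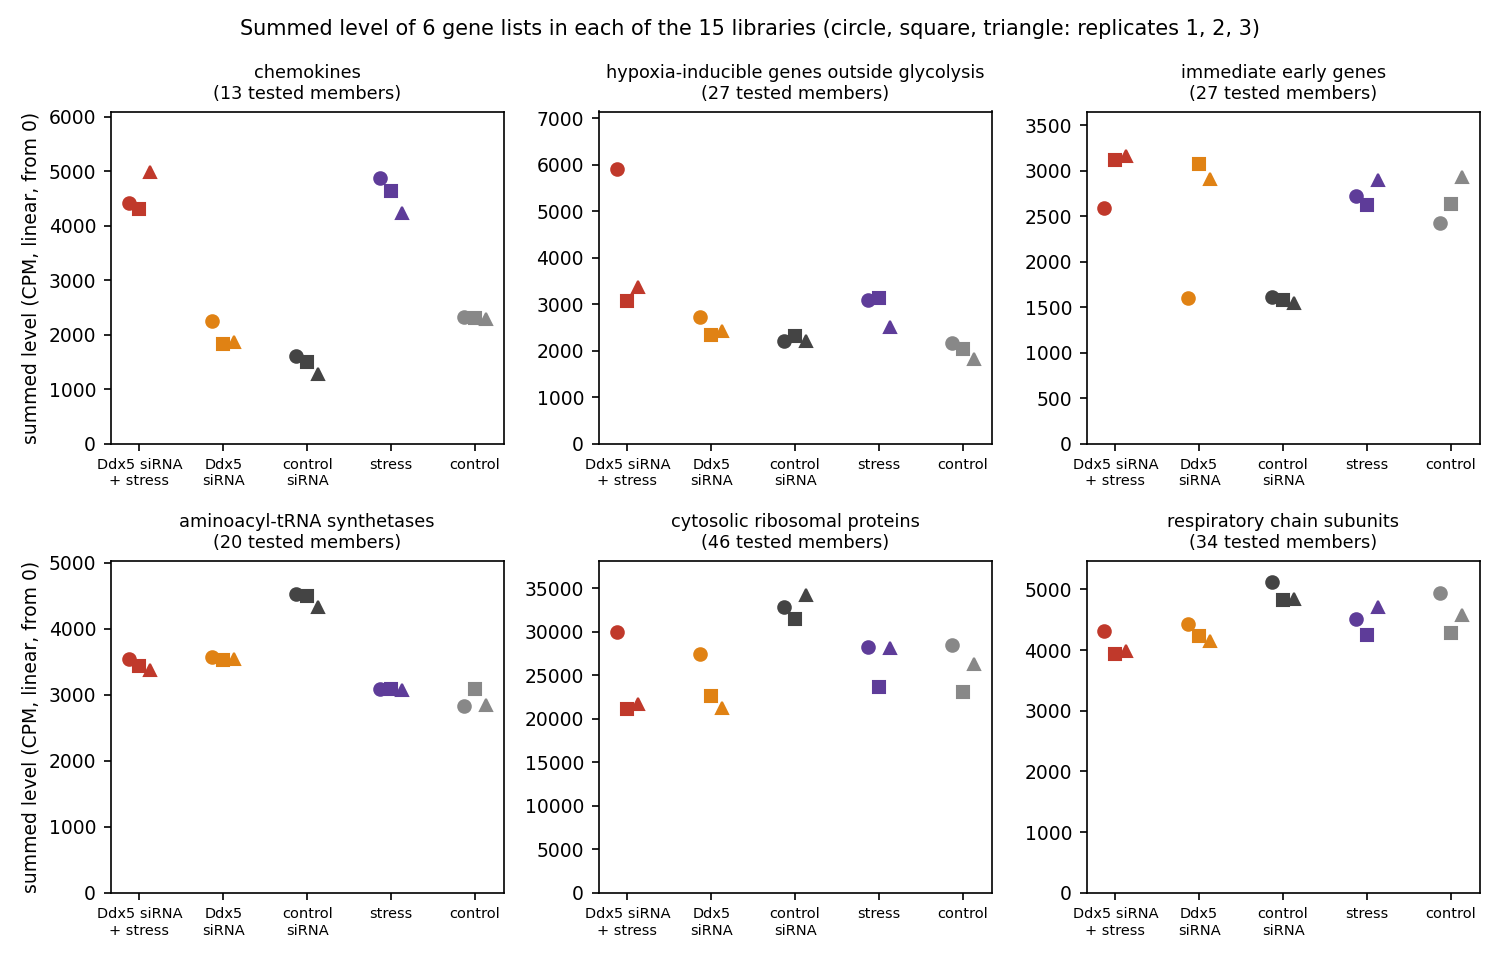
Summed CPM of the tested members of 6 gene lists in each of the 15 libraries, on a linear axis from 0, with replicates 1, 2 and 3 as circle, square and triangle. Chemokines are higher in every stressed library than in any library without stress, hypoxia-inducible genes are highest in Ddx5 siRNA plus stress replicate 1, and aminoacyl-tRNA synthetases and ribosomal proteins are highest in the control siRNA libraries.

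Stress without a named siRNA offers a comparison that shares no library with this one. It called 150 genes higher (1.06%) and 49 lower (0.346%) against the control. Of these, 115 were also higher with the Ddx5 siRNA plus stress, which is 15.4% of the genes higher here and 76.7% of those higher under stress alone. In the other direction 12 were lower in both, which is 2.37% of the genes lower here and 24.5% of those lower under stress alone, and no gene was called in opposite directions. Same-numbered libraries of the stress and control groups also deviated together. With replicate number as a block, chosen after seeing the data, stress alone called 1056 genes higher (7.46%) and 792 lower (5.6%). Of these, 290 were also higher with the Ddx5 siRNA plus stress, which is 38.7% of the genes higher here and 27.5% of those higher under stress alone, and 65 were lower in both (12.8% of the genes lower here and 8.21% of those lower under stress alone). With this block, 2 genes higher and 10 lower under stress alone were called in the opposite direction here. Of the 749 genes called higher here, 606 (80.9%) had a positive value under stress alone, against 49.5% of all tested genes. Of the 506 called lower, 358 (70.8%) had a negative value there, against 50.5% of all tested genes.

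Among the genes called in both were some of the inflammatory and metabolic groups. Icam1 rose by 1.84 here and by 1.40 under stress alone, Vcam1 by 3.88 here and 3.19 under stress alone, Kdm3a by 1.63 and 1.15 in that order, and Cpt1a by 1.37 and 1.61. Aminoacyl-tRNA synthetases had a list median of -0.36 here and 0.04 under stress alone, and immediate early genes 1.07 here and -0.03 under stress alone.

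**Figure D5:**
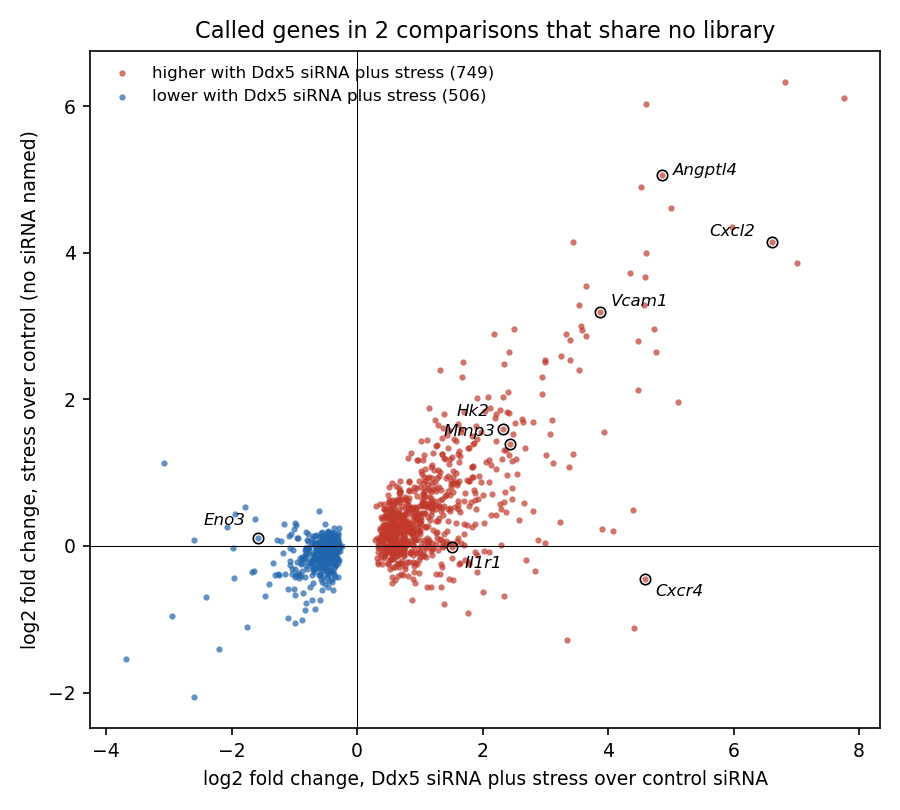
Log2 fold change of the 1255 called genes in Ddx5 siRNA plus stress over control siRNA (x axis) against stress over control with no siRNA named (y axis), red for genes called higher and blue for genes called lower on the x axis. Most red points lie above 0 on the y axis (606 of 749), and Il1r1 and Cxcr4 lie near or below it.

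The difference between both responses was tested directly. At an adjusted p under 0.05, 1 gene passed, 0.00707% of those tested, and 2139 had an unadjusted p under 0.05. DESeq2 called 257, and edgeR called 515 without Ddx5 siRNA plus stress replicate 1 and 0 to 3 without any other library. The 1 gene was Il1r1, whose response was larger here by 1.53 on the log2 scale (SE 0.20, edgeR adjusted p = 0.026). No gene was called without control replicate 3, stress replicate 3, Ddx5 siRNA plus stress replicate 2 or 3, or any control siRNA library, so the Il1r1 call was lost there. Under stress alone its log2 fold change was -0.01. Il1r1 stood at 45, 46.6 and 58.8 CPM with the Ddx5 siRNA alone, 49.2, 55.4 and 41.6 CPM under stress and 42.6, 49.5 and 55.3 CPM in the control. The Ddx5 siRNA plus stress libraries, at 62.3, 73.8 and 83.1 CPM, were above all of these, and the control siRNA libraries were below them. Against the control, Il1r1 was lower with the control siRNA by a log2 fold change of -0.95 (edgeR adjusted p = 0.0029). Nfkbia differed between the responses by 0.91 (edgeR adjusted p = 0.066) and Dusp1 by 1.19 (0.066), and neither passed.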

How the data were processed

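Total RNA of 15 libraries (5 groups of 3) was sequenced. The authors deposited a table of raw gene counts, and a table of FPKM values that was not used here. Aligner, counter, strand setting, build and annotation: not given in the sources used here. One emptied line was left out. Libraries held 14309005 to 16219775 counts, which sets the precision of low genes.

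Counts were tested with edgeR 4.0.16 (R 4.3.3, limma 3.58.1): TMM scaling, the default expression filter by group, a group term over all 15 libraries, robust quasi-likelihood F tests and Benjamini-Hochberg adjustment over 14147 genes, with calls at adjusted p under 0.05. DESeq2 1.42.0, other scalings and filters, fewer libraries, left-out libraries and a replicate block were alternatives. The procedure was tested on simulated data that held no outlying library. That test therefore does not cover how the counts depend on Ddx5 siRNA plus stress replicate 1. Library pairs of a group differed by more than sampling noise, and each counted as 1 sample.

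Replicate numbers were taken to pair 2 groups where all same-numbered libraries' deviations from the group means, over all tested genes, correlated above 0.1. This held for Ddx5 siRNA plus stress with Ddx5 siRNA (0.589, 0.252 and 0.352) and for stress with control (0.34, 0.274 and 0.395), and not for the other pairs of groups compared. In the first, replicates 2 and 3 correlated across numbers as well (0.257 and 0.245). A block fit over those 12 libraries was added after seeing the data.

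Named genes were drawn from the targeted and marker genes, the 12 largest changes per direction (mean of at least 2 CPM, groups not overlapping) and up to 4 members per list with the lowest adjusted p. Not all genes that met this rule are described in the text. Members and the 44 lists were chosen with earlier results of these data known. Others, such as Cxcl3, Ccl5, Ccl20, Ccl22, Tnfaip3, Nfkbie, Nfkb1, Nfkb2, Vcam1, Il6, Mmp19, Slc2a1, Ldha, Slc16a1, Vegfa, Stc2, Fos, Junb, Nr4a3, Klf2, Asns, Acan and AABR07030590.1, were named after their values were seen. Of 952 list symbols 891 matched by name, 42 by an older symbol, and 19 were unmatched. Promoters came from RefSeq (GRCr8), for 9343 tested genes.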

Additional observations from a re-analysis of the deposited data

Results flagged for a closer look

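Il1r1 was picked out because its response differed between the comparison of Ddx5 siRNA plus stress with control siRNA and the comparison of stress with control. The difference was 1.533 on the log2 scale (edgeR adjusted p = 0.026), with a log2 fold change of 1.52 in the first comparison and -0.01 in the second. Beside it, Il1r1 was lower in the control siRNA libraries than in the control by a log2 fold change of -0.95, and the part of that difference in the result was not tested.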

How the results depend on the processing

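The 1255 calls (749 higher, 506 lower) became 1939 with DESeq2 (894 lower), 319 lower with only the 6 libraries compared, 2091 with a replicate block (1004 lower), and 175 with a replicate block over those 6 libraries (149 higher, 26 lower). Leaving out 1 library gave 418 to 2128 calls, 284 to 1092 of them higher and 134 to 1036 lower, with the most without Ddx5 siRNA plus stress replicate 1. The 1 gene called for the difference between responses became 7 with no filter, 257 with DESeq2, 30 with only the 12 libraries of the 4 groups, 77 with a replicate block and 97 with a replicate block over those 12, and 0 to 515 with 1 library left out. The causes were not tested. Replicate numbers did not pair the Ddx5 siRNA plus stress and control siRNA libraries: deviations of same-numbered libraries correlated at -0.109, 0.0797 and -0.168. In the pairs of groups that met the pairing rule, a replicate block, chosen after seeing the data, moved the calls of the stress step (169 in all) to 1007, 657 higher and 350 lower, and those of stress against control (199) to 1848, 1056 higher and 792 lower. Ddx5 kept its call throughout, at log2 fold changes of -1.11 to -0.83. No named gene reversed. For 98 named genes other than Ddx5, the call was the same in 1046 of 1170 pairs of gene and setting. It was lost in 120 pairs, 75 of them with a library left out, and gained in 4. Il6 was among the gains. It passed with DESeq2 (edgeR main adjusted p = 0.079, DESeq2 0.022) and with the replicate block (0.0014), though replicate numbers did not pair these groups. Depth limits genes such as Cxcr4 and Ccl22, with 4 and 0 control siRNA reads.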
